A study of Rattus norvegicus with 32 samples.

Results

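The genes described here start, brake or undo blood clotting: F3, Tfpi, Thbd, Procr, Plat, Plau, Plaur, Vwf and Thbs1. They were chosen by name, as all probes whose gene name on the rat array equals a member, which gave 9 of the 18779 genes with a symbol and 15 probes in all. Their levels were measured in the left ventricle of Wistar rats aged 9 to 12 weeks, taken 20 h after surgery, on 32 one-colour arrays. In each sex there were 5 sham arrays, 5 arrays from rats with cecal ligation and puncture (CLP, which lets gut bacteria leak into the abdomen and causes sepsis) and 6 arrays from rats given CLP plus landiolol, a short-acting blocker of the beta1-adrenergic receptor. All rats received buprenorphine and an infusion of the same volume, saline alone in the sham and CLP groups and saline with landiolol in the treated group. Before freezing, the hearts had been imaged in the living animal and then beaten outside the body on a Langendorff apparatus, which replaces the blood in the coronary vessels with buffer. The tissue is whole ventricle, and in such bulk RNA fewer cells of a type and less RNA per cell cannot be told apart.

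Clotting starts when tissue factor (F3), a membrane protein of cells around vessels and of cardiomyocytes, meets factor VII in plasma. Tissue factor pathway inhibitor (Tfpi) stops this step. Thrombin made further on is turned from a clotting enzyme into an anticoagulant one by thrombomodulin (Thbd) on endothelium, helped by the endothelial protein C receptor (Procr). Fibrin is dissolved by plasmin, which tissue-type (Plat) and urokinase-type (Plau) plasminogen activators release from its precursor, the second of them held on the cell by its receptor (Plaur). Von Willebrand factor (Vwf), stored in endothelium, and thrombospondin-1 (Thbs1), a matrix protein also found in platelets, help platelets to adhere. In sepsis this balance is known to tilt toward clotting, with loss of anticoagulant proteins from the endothelium.

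Of these genes, tissue factor fell in the males after CLP and no other member passed the test in any comparison. This call lay just under the threshold and was lost in 8 of 10 cases when single arrays were left out. It was 1 of 9 members, beside 9.37% of all genes called in that comparison. Thrombomodulin lay lower and Procr higher in the male CLP hearts by amounts that missed the threshold. No member passed between CLP plus landiolol and CLP in either sex. After CLP the reported Vwf probe changed by -0.15 in males and -0.47 in females, and the other probe by 0.64 and 0.78. These signs were opposite, but no change passed the threshold, and the male interval of the reported probe, -0.38 to 0.09, spanned both signs. The difference between the 2 probes had an exact permutation adjusted p of 0.286 in males and 0.0952 in females after CLP. For CLP plus landiolol against sham it was 0.039 in each sex, where the female groups also differed in slide row. The direction of this gene was thus not settled.

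Values are log2 of the background-corrected array signal after the 16 arrays of a sex were brought to a common distribution, so a difference of 1 is a doubling, and levels are not compared between sexes or between probes. A gene with several probes is reported by the probe with the highest mean. Changes were tested with limma, which fits a linear model to every probe and shares the estimate of spread between probes, and adjusted by the Benjamini-Hochberg method over all probes kept. The false discovery rate (FDR) was set at 1% for CLP against sham and at 5% for CLP plus landiolol against CLP, as in the methods of the study. The 1% for CLP plus landiolol against sham was chosen here. The filter on dim probes kept all 9 members in both sexes, Plau only through its sham arrays. The arrays had between 34920 and 43155 spots well above background, and each correlated with the others of its group at 0.97 to 0.985 on average. Males were hybridised on 2 slides and females on 2 others, so sex and slide cannot be told apart. Within the females all sham arrays lay in the first row of a slide and all CLP plus landiolol arrays in the second row. On female sham replicate 1 the level was the lowest of its group for 7 of the 9 members, and on female CLP replicate 2 for 6 of 9. Without this sham array no member was called against sham in females either. Over the other settings and left-out arrays, the female change after CLP ranged from -0.71 to -0.28 for F3 and from -0.66 to -0.24 for Thbd. For Plaur it ranged from 0.11 to 0.88 and for Thbs1 from -0.76 to 0.12. The study describes the arrays of a group as biological replicates, and the number of arrays limits the precision.

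**Figure D1:**
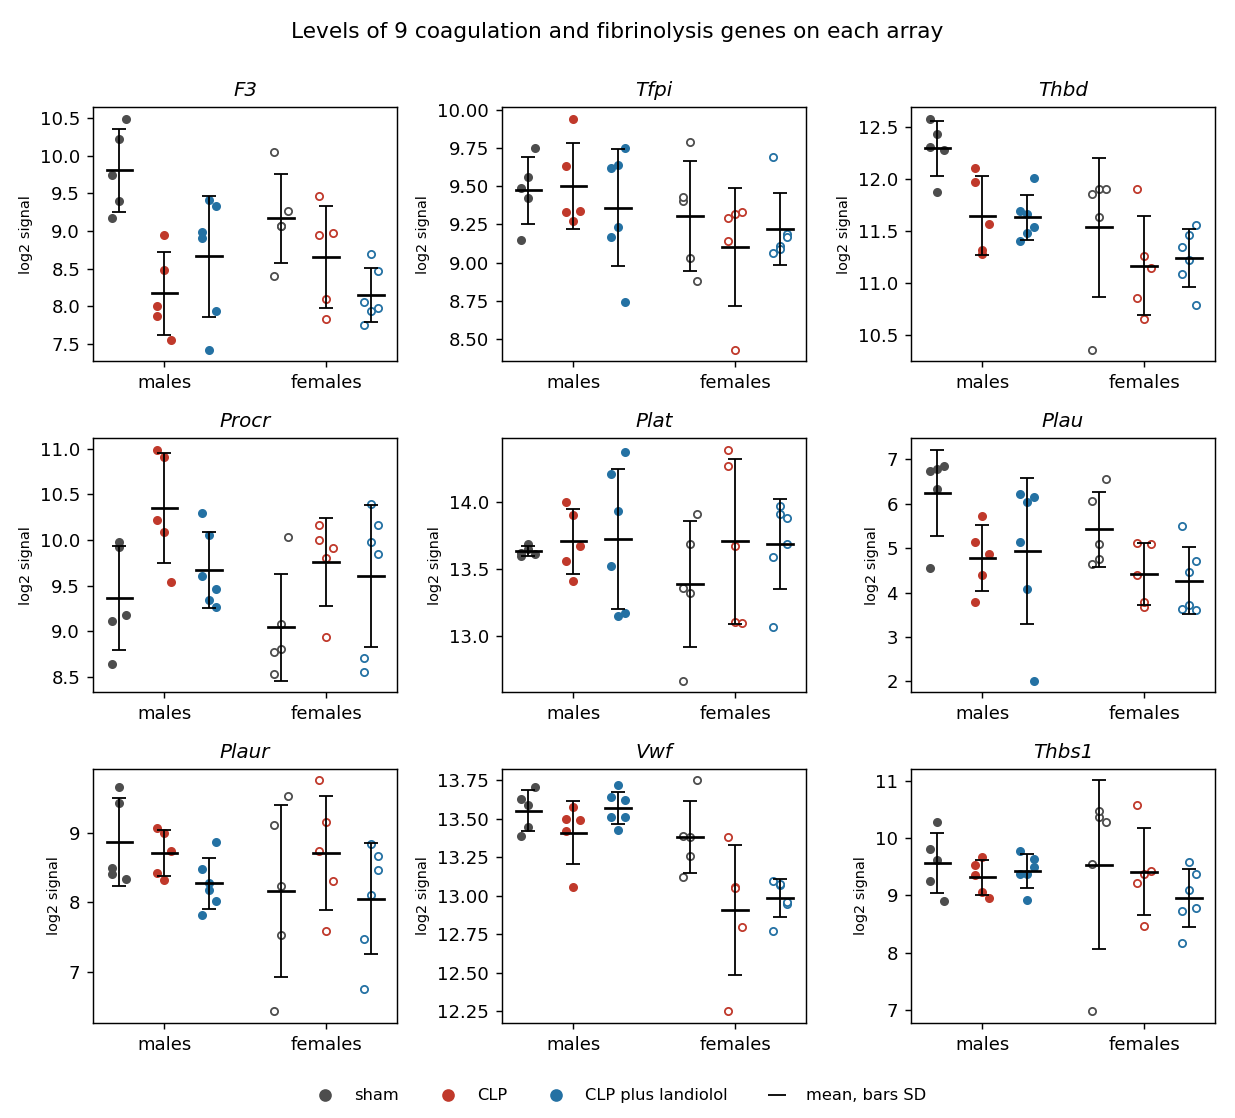
Log2 signal of the 9 genes on each array (vertical axis), by sex and group (filled points males, open points females); horizontal lines are group means and bars are SD. F3 of the male CLP arrays, between 7.55 and 8.95, lies below every male sham array, between 9.17 and 10.49. Most other groups overlap.

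F3, the gene of tissue factor, was measured by a probe printed 10 times on each array (A_43_P11683, matched to NM_013057, chromosome 2, 218382225 to 218382283 in rn4), and these spots had an SD between 0.05 and 0.16 on the log2 scale within an array. The male sham arrays read 9.17, 9.40, 10.49, 9.75 and 10.22. The male CLP arrays read 7.87, 8.48, 7.55, 8.00 and 8.95. Every male CLP array thus lay below every male sham array. The mean was 9.81 ± 0.55 (SD, n = 5) in sham and 8.17 ± 0.55 (SD, n = 5) after CLP, a fall by 1.64 on the log2 scale (SE 0.39, 95% interval -2.46 to -0.81, limma adjusted p = 0.00916), or 3.11-fold. On the 2 male slides taken alone the change was -1.32 and -1.68. The adjusted p lay just under the threshold: leaving out single arrays in turn gave changes from -1.83 to -1.46, and in 8 of 10 cases the call was lost (limma adjusted p up to 0.0275). These were the cases without sham replicates 2, 3, 4 or 5 or CLP replicates 1, 2, 3 or 4. With the slide in the model the change was -1.57 (limma adjusted p = 0.0136).

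With landiolol the male F3 arrays spread from 7.42 over a median of 8.95 to 9.41, with a mean of 8.66 ± 0.81 (SD, n = 6). They overlapped both other groups. The difference from CLP was 0.50 (SE 0.37, limma adjusted p = 0.553) and the difference from sham -1.14 (SE 0.37, limma adjusted p = 0.0648). The order of the means was sham, CLP plus landiolol, CLP, and only sham and CLP differed past the threshold.

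In the females, F3 read 8.40, 9.07, 9.26, 10.05 and 9.07 on the sham arrays and 8.94, 8.09, 8.97, 9.46 and 7.83 on the CLP arrays. These groups overlapped, with a difference of -0.51 (SE 0.32, limma adjusted p = 0.378), or -0.70 (SE 0.32, limma adjusted p = 0.229) without sham replicate 1. Of the CLP plus landiolol arrays, between 7.75 and 8.69 with a median of 8.01, 4 lay below the lowest sham array. Their mean was 8.14 ± 0.36 (SD, n = 6), 1.03 below sham by the fit (log2 change -1.03, SE 0.31), and the limma adjusted p of 0.0402 missed the 1% level. Without sham replicate 1 it was -1.22 (SE 0.31, limma adjusted p = 0.0229), also short of 1%. Between CLP plus landiolol and CLP the female difference was -0.51 (SE 0.31, limma adjusted p = 0.651). The means followed the order sham, CLP, CLP plus landiolol in females, unlike in males.

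A test of the difference between the sexes, over all 32 arrays normalised together, did not separate these patterns. The female minus male difference of the F3 change was 1.10 for CLP against sham (SE 0.52, 95% interval 0.04 to 2.17, limma adjusted p = 1). For CLP plus landiolol against CLP it was -1.01 (SE 0.50, 95% interval -2.03 to 0.01, limma adjusted p = 0.972). No member differed between the sexes in either contrast at an FDR of 5%, where 0% of the 12953 genes tested did, and F3 after CLP was the only member with an unadjusted p under 0.05.

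Over the 32 arrays, each sex centred on its own mean, the genes whose level followed F3 most closely among 12952 others were Oaf (Pearson r = 0.772), Arsb (r = 0.772) and Nov (r = 0.767). Among the members, Plau was nearest to F3 (r = 0.72) and Procr showed no relation to it (r = -0.09). Plau passed the filter only through its sham arrays and was often at background in the septic groups, so its r rests partly on such values. All these correlations are descriptions over arrays that share the groups, so a difference between groups enters each of them.

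Across the members as a group, the counts were near or below the background of all genes. In males after CLP 1 of 9 members was called, lower, beside 9.37% of the 13330 genes tested, and 1 of 9 had groups that did not overlap, beside 14.4% of all genes. The median log2 change of the members was -0.16 in this comparison. In females after CLP 0 of 9 were called, beside 4.31% of 13121 genes, and for 0 of 9 the groups did not overlap, beside 9.87%. For CLP plus landiolol against CLP 0 of 9 were called in limma in males (background 1.82%) and 0 of 9 in females (background 0.114%), and all members overlapped between these groups, beside 2.68% and 1.41% of all genes that did not. For CLP plus landiolol against sham 0 of 9 were called in males (background 5.02%) and in females (background 6.14%). There, no member in males and 1 in females, Vwf, had groups without overlap, beside 9.51% and 11.4% of all genes. Without adjustment, p in limma was under 0.05 for 3, 1 and 3 members in males and for 2, 0 and 3 in females, in the order CLP against sham, CLP plus landiolol against CLP, and CLP plus landiolol against sham. In the same order, such a p was found for 4195, 2189 and 3570 of all 13330 genes in males. In females it was found for 3348, 1265 and 3892 of 13121. The comparisons share arrays: both against sham use the same sham arrays, and both with CLP the same CLP arrays.

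**Figure D2:**
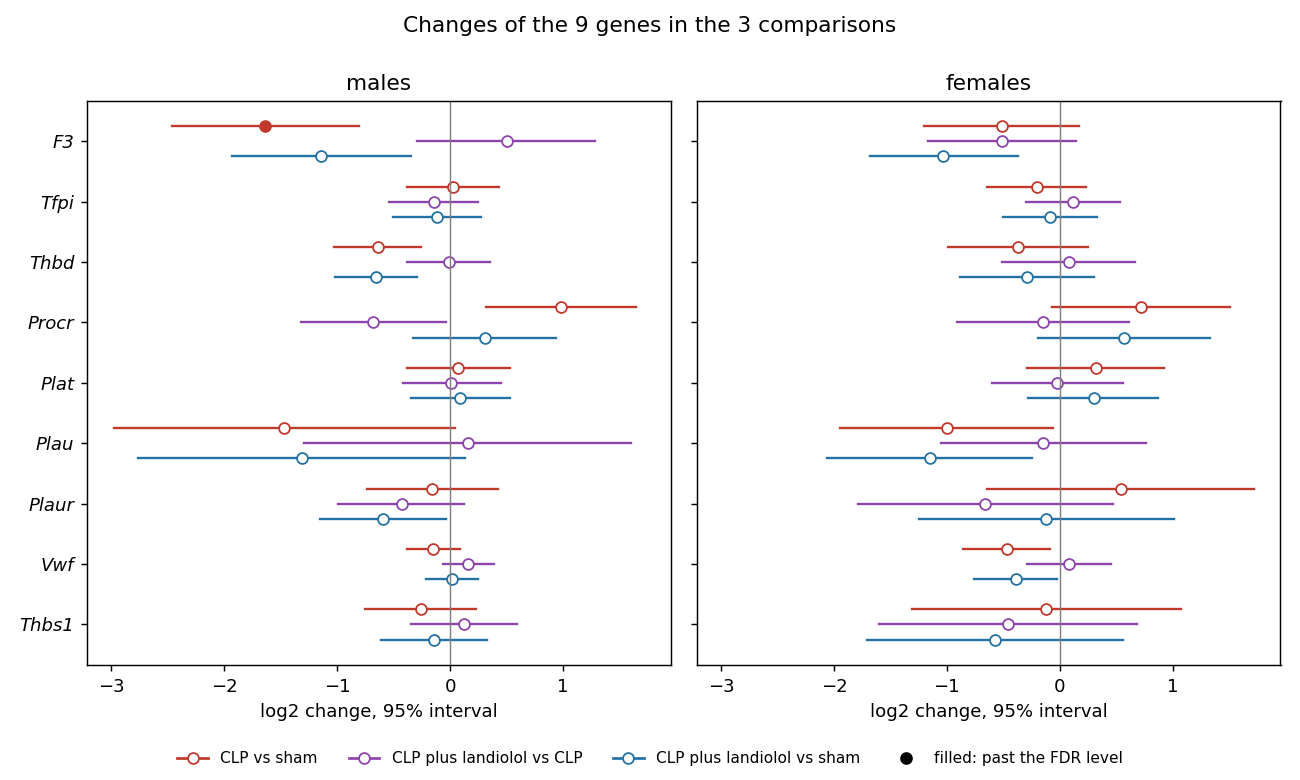
Log2 change of each gene (horizontal axis, with its 95% interval from limma) in the 3 comparisons, males on the left and females on the right; a filled point passed the FDR level. Only F3 in males, CLP against sham, at -1.64, is filled. The intervals of Plau in males and of Plaur and Thbs1 in females are the widest.

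Tfpi, the inhibitor of the tissue factor step, read close to its sham level in the septic hearts. In males it read 9.15 to 9.75 on sham, 9.27 to 9.94 on CLP and 8.74 to 9.75 on CLP plus landiolol arrays, so that the 3 groups overlapped widely. The change after CLP was 0.03 (SE 0.19, 95% interval -0.38 to 0.43, limma adjusted p = 0.955). In females it was -0.20 (SE 0.21, 95% interval -0.64 to 0.23, limma adjusted p = 0.614). The second Tfpi probe, matched to another transcript (NM_001177321, against NM_017200 for the first), gave 0.09 in males and 0.14 in females, also not called. With landiolol, Tfpi differed from CLP by -0.14 in males and 0.12 in females, and from sham by -0.12 and -0.09.

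Thbd, the endothelial receptor that redirects thrombin, read 12.58, 11.88, 12.28, 12.31 and 12.43 on the male sham arrays. After CLP it read 11.97, 11.28, 11.57, 12.11 and 11.32. With landiolol the arrays lay between 11.41 and 12.01, with a median of 11.61. A single sham array, at 11.88, reached into the range of the septic groups. The male means were 12.29 ± 0.26 (SD, n = 5), 11.65 ± 0.38 (SD, n = 5) and 11.63 ± 0.21 (SD, n = 6). Against sham this was -0.64 after CLP (SE 0.18, limma adjusted p = 0.0227) and -0.66 with landiolol (SE 0.17, limma adjusted p = 0.0233), both short of the 1% level. The male slides taken alone gave -0.62 and -0.63 after CLP and -0.66 and -0.64 with landiolol. Between CLP plus landiolol and CLP the difference was -0.01 (SE 0.17, 95% interval -0.38 to 0.35).

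A second Thbd probe, 1752 bases away in rn4 and matched to the same transcript, NM_031771, went the same way in males. It read 7.33 to 8.45 on sham, 6.80 to 7.86 on CLP and 6.44 to 7.11 on CLP plus landiolol arrays. Here CLP plus landiolol lay wholly below sham, with a change of -0.99 (SE 0.22, limma adjusted p = 0.00839), past the 1% level, while CLP against sham gave -0.48 (SE 0.22, limma adjusted p = 0.171). The brighter probe, by which the gene is reported, did not reach that level, so the call in males depended on the probe.

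In females Thbd read 10.36, 11.91, 11.91, 11.86 and 11.64 on sham arrays and 11.91, 10.66, 11.15, 10.86 and 11.26 on CLP arrays. The lowest value of all belonged to a sham array, replicate 1, which was also the lowest sham array for F3, Procr, Plat, Plau, Plaur and Thbs1. The change after CLP was -0.37 (SE 0.29, limma adjusted p = 0.497), and without that array -0.66 (SE 0.22, limma adjusted p = 0.0923). With landiolol it was -0.29 (SE 0.28, limma adjusted p = 0.556), and -0.59 (SE 0.21, limma adjusted p = 0.101) without it. The change after CLP did not differ detectably between sexes (female minus male 0.27, 95% interval -0.45 to 0.98).

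Procr, which presents protein C to the thrombin and thrombomodulin complex, had the largest positive change of the 9 reported probes after CLP in both sexes, and it did not pass in either. In males it read 8.64, 9.98, 9.18, 9.12 and 9.92 on sham and 10.22, 10.09, 9.54, 10.99 and 10.91 on CLP arrays. Only 1 CLP array, at 9.54, lay within the sham range. The means were 9.37 ± 0.57 (SD, n = 5) and 10.35 ± 0.60 (SD, n = 5), a change of 0.98 (SE 0.31, limma adjusted p = 0.0433). With landiolol it spread from 9.27 over a median of 9.54 to 10.30, at a mean of 9.67 ± 0.42 (SD, n = 6). That was 0.31 from sham (SE 0.30, limma adjusted p = 0.574) and -0.68 from CLP (SE 0.30, limma adjusted p = 0.306).

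The slides differed in size for Procr. The male change after CLP was 0.64 on the first and 1.54 on the second slide, and the change from CLP to CLP plus landiolol was -0.08 and -1.48. In females the changes after CLP were 0.26 and 1.16 on the 2 female slides. The female sham arrays read 8.53, 8.81, 10.03, 8.78 and 9.08 and the CLP arrays between 8.94 and 10.17, all but the lowest at 9.80 or above. Despite 1 high sham array the means stood at 9.04 ± 0.58 (SD, n = 5) and 9.76 ± 0.48 (SD, n = 5), 0.72 apart (SE 0.37, limma adjusted p = 0.27). With landiolol the females ranged from 8.56 to 10.40, 0.57 above sham by the fit (SE 0.36, limma adjusted p = 0.343). Without sham replicate 1 these 2 female differences from sham were 0.59 (SE 0.40) and 0.44 (SE 0.38).

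Plat, the main plasminogen activator of endothelium, differed little in mean between the groups. In males the change after CLP was 0.07 (SE 0.22, 95% interval -0.38 to 0.53, limma adjusted p = 0.877). The male sham arrays read 13.60 to 13.69, with an SD of 0.04, while the CLP arrays had an SD of 0.24 (13.41 to 14.00) and the CLP plus landiolol arrays an SD of 0.52 (13.15 to 14.37). Their means of 13.63, 13.71 and 13.72 lay within 0.09 of each other. The narrow spread of sham was not seen in females, where the SD was 0.47 in sham, 0.61 after CLP and 0.34 with landiolol. The female change after CLP was 0.32 (SE 0.29, 95% interval -0.29 to 0.92, limma adjusted p = 0.563), and 0.14 (SE 0.28, limma adjusted p = 0.847) without sham replicate 1.

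Plau, the urokinase-type activator, was dim, and in the septic groups it was often not above background. Its probe was well above background on 5 of 5 sham arrays in each sex. After CLP this held for 3 of 5 arrays in males and 2 of 5 in females, and with landiolol for 4 of 6 and 2 of 6. The male sham arrays read 4.56, 6.78, 6.86, 6.73 and 6.33, and the male CLP arrays 3.79, 4.39, 4.86, 5.14 and 5.72. Except for the first sham array, all sham arrays exceeded all CLP arrays. The probe thus passed the filter only through the group in which it was brightest, and part of the septic values are at background, so the size of its difference is uncertain. In males it was -1.47 (SE 0.71, 95% interval -2.98 to 0.04, limma adjusted p = 0.186). Over the other settings and left-out arrays it ranged from -1.90 to -0.67 in males and from -1.20 to -0.38 in females, where the interval was -1.95 to -0.06 and the limma adjusted p was 0.185. The smallest sizes, -0.67 and -0.38, came with the normexp background correction. With landiolol it was -1.31 (SE 0.68, limma adjusted p = 0.255) and -1.15 (SE 0.43, limma adjusted p = 0.0909) against sham, and 0.16 and -0.15 against CLP. A second Plau probe was well above background on 3 of 32 arrays and was not tested.

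Plaur, the urokinase receptor, spread widely among female sham arrays, from 6.43 to 9.52. After CLP it differed from sham by -0.16 in males (SE 0.27, limma adjusted p = 0.77) and 0.54 in females (SE 0.56, limma adjusted p = 0.621). Without female sham replicate 1 the female difference was 0.11 (SE 0.51, limma adjusted p = 0.943), and that of CLP plus landiolol from sham was -0.55 (SE 0.49, limma adjusted p = 0.547), against -0.12 (SE 0.53) with it. With landiolol it lay below CLP by the fit in both sexes, at -0.43 (SE 0.26, 95% interval -0.99 to 0.12) and -0.66 (SE 0.53, 95% interval -1.79 to 0.47), neither past the test. Its 2 probes followed each other over the 16 arrays of a sex at r = 0.94 in males and r = 0.97 in females, so the spread between arrays was shared by both probes.

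Thbs1, a matrix protein that binds platelets and also activates latent transforming growth factor beta, spread widely in female sham, where the arrays read 6.98, 10.37, 10.28, 9.55 and 10.48. Female CLP arrays read 10.58, 8.47, 9.43, 9.21 and 9.38, and CLP plus landiolol arrays 8.18 to 9.59. The change with landiolol against sham was -0.57 (SE 0.54, limma adjusted p = 0.547), and without the sham array at 6.98 it was -1.21 (SE 0.35, limma adjusted p = 0.042), still not past 1%. The change after CLP was -0.12 (SE 0.56) with all arrays and -0.76 (SE 0.36, limma adjusted p = 0.259) without it. In males it was -0.26 (SE 0.23, limma adjusted p = 0.521). Both Thbs1 probes read low on that female array, 6.98 and 4.24, and they followed each other at r = 0.88 in males and r = 0.98 in females. The brighter probe carries the name Thbs1 only in the female array files.

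For Vwf, the adhesive protein that endothelium stores and releases, the values depended on the probe. Which of its 2 probes follows the Vwf mRNA was not tested. Its 2 probes are matched to the same transcript, NM_053889, on the plus strand of chromosome 4, with starts 94616 bases apart in rn4. The first, by which the gene is reported, is nearer the start of the gene and the second nearer its end. The array files do not say in which exon either lies. Their sequences are shown because the result depends on them.
A_43_P21694, chr4:161759938-161759997 (rn4, plus strand): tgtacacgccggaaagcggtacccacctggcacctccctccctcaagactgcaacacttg
A_64_P114913, chr4:161854554-161854613 (rn4, plus strand): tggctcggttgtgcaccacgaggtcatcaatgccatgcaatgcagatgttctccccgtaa

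The first Vwf probe read 13.63, 13.59, 13.71, 13.39 and 13.45 on male sham arrays and 13.50, 13.58, 13.49, 13.42 and 13.06 on male CLP arrays. Only the last of these lay below the sham range. The change was -0.15 (SE 0.11, limma adjusted p = 0.444). In females it read 13.39, 13.38, 13.75, 13.12 and 13.26 on sham and 13.38, 13.06, 12.80, 12.25 and 13.05 on CLP arrays, lower by the fit with -0.47 (SE 0.18, limma adjusted p = 0.121). On the female CLP plus landiolol arrays, between 12.77 and 13.10, all values lay below all sham values, with a change of -0.39 (SE 0.17, limma adjusted p = 0.158). When slide row was added to the model this change was 0.04 (SE 0.30, limma adjusted p = 0.981). In males that change was 0.02 (SE 0.11, limma adjusted p = 0.94).

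The second Vwf probe read 13.25, 12.69, 12.53, 12.63 and 12.83 on male sham arrays and 13.71, 13.60, 12.54, 13.75 and 13.52 on male CLP arrays. Of the CLP arrays, 4 lay above every sham array. The change was 0.64 (SE 0.23, limma adjusted p = 0.0713), and with landiolol against sham it was 0.76 (SE 0.22, limma adjusted p = 0.0388). In females it read 11.76, 11.86, 12.96, 12.18 and 12.67 on sham and 12.95, 13.20, 12.92, 12.89 and 13.35 on CLP arrays, 0.78 higher by the fit (SE 0.23, limma adjusted p = 0.0427). With landiolol the female change was 0.87 (SE 0.22, limma adjusted p = 0.0159), and 0.78 (SE 0.41, limma adjusted p = 0.58) with the row as a term. None of these passed 1%, but all 4 pointed upward, against -0.15, 0.02, -0.47 and -0.39 for the first probe.

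The difference between the probes on the same array, second minus first, removes what an array adds to both. It was -0.77 ± 0.30 (SD, n = 5) in male sham, 0.02 ± 0.56 (SD, n = 5) in male CLP and -0.03 ± 0.30 (SD, n = 6) in male CLP plus landiolol hearts. In females it was -1.09 ± 0.46 (SD, n = 5), 0.16 ± 0.39 (SD, n = 5) and 0.17 ± 0.31 (SD, n = 6). Female sham arrays, from -1.62 to -0.59, lay below all CLP arrays, from -0.43 to 0.65, and below all CLP plus landiolol arrays, from -0.38 to 0.46. Male sham arrays, from -1.18 to -0.38, lay below all CLP plus landiolol arrays, from -0.35 to 0.41, and below all but 1 CLP array, which read -0.94.

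Exact two-sided permutation tests over arrays were run for the 6 genes with 2 probes in all 6 comparisons, 36 in all, after the opposite signs had been seen. For Vwf, CLP plus landiolol against sham differed by 0.74 in males and 1.26 in females (exact permutation p = 0.00216 in each, the smallest that 6 against 5 arrays allow, adjusted p = 0.039). CLP against sham differed by 1.25 in females (exact permutation p = 0.00794, the smallest for 5 against 5, adjusted p = 0.0952) and by 0.78 in males (exact permutation p = 0.0397, adjusted p = 0.286). The change held on each slide, with 0.73 and 0.71 in males and 0.95 and 1.62 in females for CLP plus landiolol against sham. In females the sham arrays all lay in row 1 and the CLP plus landiolol arrays in row 2, so this comparison goes with the row. The female CLP arrays lay in both rows: the 3 in row 1 read -0.43 to 0.14, above the 5 sham arrays of that row at -1.62 to -0.59, and the 2 in row 2 read 0.29 and 0.65. With the row as a term the female difference was 1.04 (SE 0.27) for CLP and 0.74 (SE 0.40) for CLP plus landiolol against sham, and in males, whose groups lay in both rows, 0.81 (SE 0.26) and 0.75 (SE 0.25). CLP plus landiolol against CLP differed by -0.04 in males and 0.01 in females. None of the other 5 genes reached an adjusted p under 0.05 in any of these tests, the lowest being 0.286 for Thbd. Over the 16 arrays of a sex the 2 Vwf probes had a correlation of -0.04 in males and -0.29 in females, against 0.28 to 0.98 for the other 5 pairs.

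**Figure D3:**
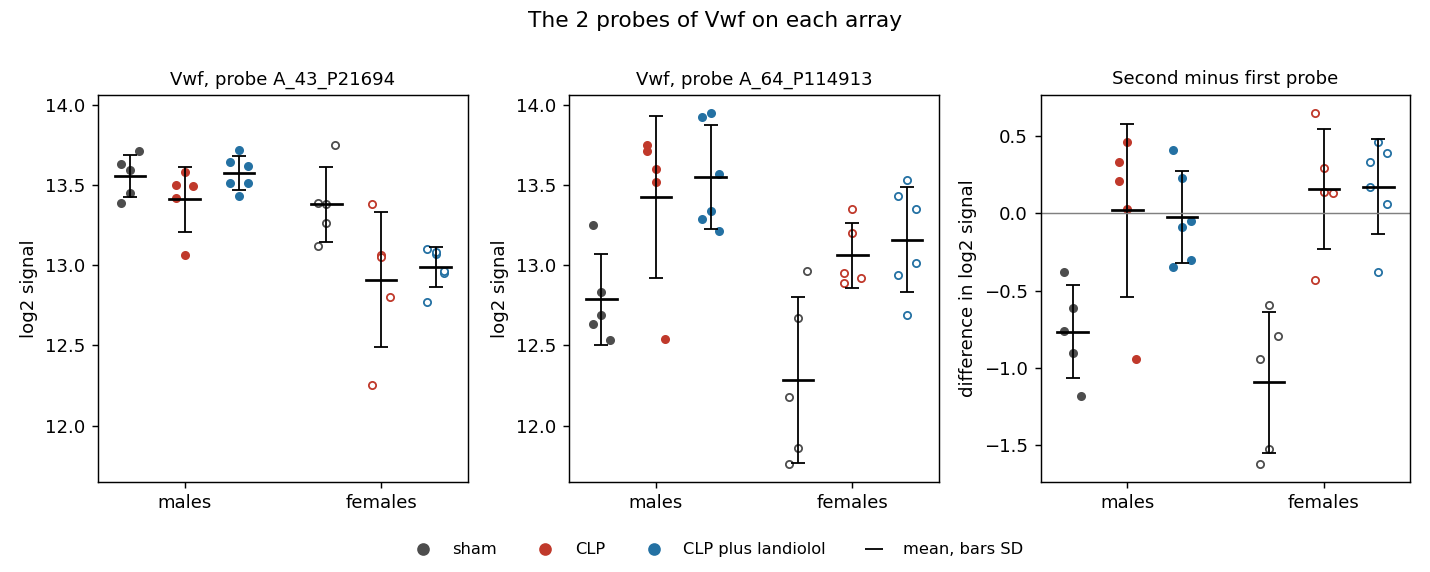
Log2 signal of the 2 Vwf probes on each array (left and middle panels, same vertical scale) and their difference, second minus first (right panel); filled points are males, open points females, lines are means and bars SD. In the right panel the sham arrays of both sexes lie between -1.62 and -0.38, and the CLP plus landiolol arrays between -0.38 and 0.46.

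Markers of endothelium, where Vwf, Thbd, Procr, Plat and Tfpi are known to be made, had a median log2 change after CLP of -0.03 in males and -0.06 in females. All 13 of the list were tested, including Pecam1, Cdh5 and Tie1. With landiolol the median was 0.16 in males and 0.23 in females against sham, and 0.14 and 0.28 against CLP. Their mean level per array ranged from 11.30 to 11.86 in male sham, 11.37 to 11.88 in male CLP and 11.49 to 11.83 in male CLP plus landiolol hearts. In females the ranges were 10.74 to 11.74, 11.04 to 11.64 and 11.36 to 11.67. Emcn, a sialomucin of capillary and venous endothelium, fell after CLP in both sexes (log2 change -1.08, SE 0.22, limma adjusted p = 0.00397 in males, and -1.34, SE 0.23, limma adjusted p = 0.00165 in females). Kdr and Ptprb, both endothelial receptors, rose in females with landiolol against sham, the only other calls of this list.

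Platelets, which carry Thbs1 and Vwf, left a weak signal. Of 12 platelet and megakaryocyte markers, 7 were tested in males and 5 in females. Gp1ba, Gp6 and Tubb1 were well above background on no array of either sex, as were Ppbp in males and Gp5 in females. Clec1b rose in male CLP hearts (log2 change 1.22, SE 0.28, limma adjusted p = 0.00704) and no other platelet marker was called. The mean of the tested markers per array ranged from 6.19 to 6.55 in male sham and from 6.47 to 7.08 in male CLP hearts, and from 6.92 to 7.33 and 6.98 to 7.28 in females.

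Some markers of white cells were called higher against sham, and most of those listed were not called or not tested. Of 13 monocyte and macrophage markers, 11 were tested and Cd68, Adgre1 and Lyz2 rose against sham in both septic groups of both sexes, with a median log2 change after CLP of 0.52 in males and 0.39 in females. The mean level of this list per array was 10.06 to 10.54 in male sham, 10.64 to 11.42 in male CLP, 10.13 to 10.52 in female sham and 10.32 to 11.05 in female CLP hearts. Neutrophil markers were mostly dim, with 3 of 11 tested in males and 4 of 11 in females. Of them S100a8 rose against sham in both septic groups of both sexes. S100a9 rose in the same comparisons except in female CLP hearts, where its change of 1.95 missed the 1% level (limma adjusted p = 0.0328). The median log2 change of the tested neutrophil markers was 2.50 in males and 0.43 in females after CLP, and 3.72 and 1.61 with landiolol against sham, while Mmp8, Ngp and Elane were well above background on no array.

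Of the fibroblast list, Col1a1, Col1a2, Col3a1 and Lum fell and Tcf21 rose in the male CLP hearts. The mean level of its 9 markers was 11.47 to 12.07 in male sham and 10.58 to 11.41 in male CLP hearts. In females these ranges were 11.08 to 11.63 and 10.12 to 11.71, with no marker called. The median log2 change of the list against sham was -0.40 in male CLP and -0.36 in female CLP hearts. With landiolol it was -0.75 in males and -0.05 in females, and Tcf21 was again called higher in males. Of 9 smooth muscle and pericyte markers none was called in male CLP hearts, where the median log2 change was -0.69, and Rgs5 fell in female CLP hearts. Kcnj8 of this list was higher in male CLP plus landiolol than in male CLP hearts, beside 1.82% of all genes called. No other marker of any of these lists was called between CLP plus landiolol and CLP in either sex. All 11 cardiomyocyte markers, which define the labelled tissue, were well above background and none was called in any comparison. Of 9 markers of the epicardial mesothelium 2 were tested and none was called, and of 7 erythroid markers 2 were tested, with Slc4a1 lower in the septic groups of both sexes. The part of these cell types in the changes of F3 and Vwf was not tested.

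Around the 9 genes, a list of 61 other genes of coagulation, fibrinolysis, platelet adhesion and their receptors was read in the same fit. All had a probe and 38 were tested in each sex. In males after CLP 9 of 38 were called, 6 higher and 3 lower, beside 9.37% of all genes tested, with a median log2 change of -0.03 over the list. The list was chosen with earlier results of these data known, so its share of calls is a description and no test of the list. Fga, 1 of the 9, passed the filter only through the CLP arrays, where it was high, and so had to differ, and 7 were called when probes had to be well above background on 80% of all male arrays. For CLP plus landiolol against sham 3 were called in males, all higher, beside 5.02%. In females 1 was called after CLP, beside 4.31%, and 1 with landiolol against sham, beside 6.14%. Between CLP plus landiolol and CLP no gene of the list was called in either sex by limma at 5%. In males 5 were called with array weights, 3 with SAM and 3 without CLP replicate 1, and in females 1 with array weights. The share of all genes called under these settings was not worked out, so these counts have no background beside them.

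Genes for inhibitors and scavengers of proteases were among those that rose. A2m, which traps many proteases including plasmin, rose by 2.15 on the log2 scale in male CLP hearts (SE 0.30, limma adjusted p = 0.000212). Its mean was 3.61 in male sham and 5.76 in male CLP hearts. The sham level was thus dim and the size of this change is uncertain. Whether A2m met the filter on its sham arrays is not given here, so the call itself needs caution too. Serping1, the inhibitor of C1 and of the contact pathway enzymes, rose by 0.76 in male CLP (SE 0.18, limma adjusted p = 0.00764) and 1.02 in male CLP plus landiolol hearts (SE 0.17, limma adjusted p = 0.00125). Lrp1, a receptor that clears plasminogen activators and also Tfpi from the cell surface, was the only gene of the list called in both sexes. It rose after CLP by 1.09 in males (SE 0.19, limma adjusted p = 0.00113) and 1.15 in females (SE 0.23, limma adjusted p = 0.00483), and with landiolol by 1.07 and 1.25 against sham. When slide row was added to the model both female calls were lost, at 1.23 (SE 0.27, limma adjusted p = 0.0177) after CLP and 1.44 (SE 0.40, limma adjusted p = 0.188) with landiolol. The female call after CLP was lost without sham replicates 1, 2 or 5 or CLP replicates 2, 3 or 4 (limma adjusted p up to 0.0146), and that of Serping1 in male CLP hearts in 8 of 10 cases (up to 0.0223).

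Other calls in male CLP hearts concerned single steps of the system. Hs3st1, which makes the heparan sulfate that binds antithrombin, rose by 1.16 (SE 0.22, limma adjusted p = 0.00183). Fga, the alpha chain of fibrinogen, stayed at background on all male sham arrays and reached a level at least 1.59-fold higher in CLP hearts, set against the lowest signal that counted as above background, a call lost in 9 of 10 cases when single arrays were left out. Cd47, a receptor of thrombospondin-1, rose by 1.10 (SE 0.21, limma adjusted p = 0.00197), and Cd36, another receptor of it that also takes up fatty acids, rose by 0.54 with landiolol against sham (SE 0.10, limma adjusted p = 0.00256).

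Gas6, a vitamin K-dependent protein related to protein S, fell by 1.08 on the log2 scale (SE 0.16, limma adjusted p = 0.000393). Vkorc1, which recycles vitamin K for such proteins, fell by 0.47 (SE 0.10, limma adjusted p = 0.00402), a call lost without sham replicates 2 or 3 or CLP replicates 3 or 5. Thbs2, a matrix relative of Thbs1, fell by 1.77 (SE 0.26, limma adjusted p = 0.000332), where Thbs1 itself gave -0.26. In females Gas6 and Thbs2 gave -1.03 (limma adjusted p = 0.0161) and -1.24 (limma adjusted p = 0.0121) and missed the 1% level, although neither overlapped between female sham and CLP arrays.

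**Figure D4:**
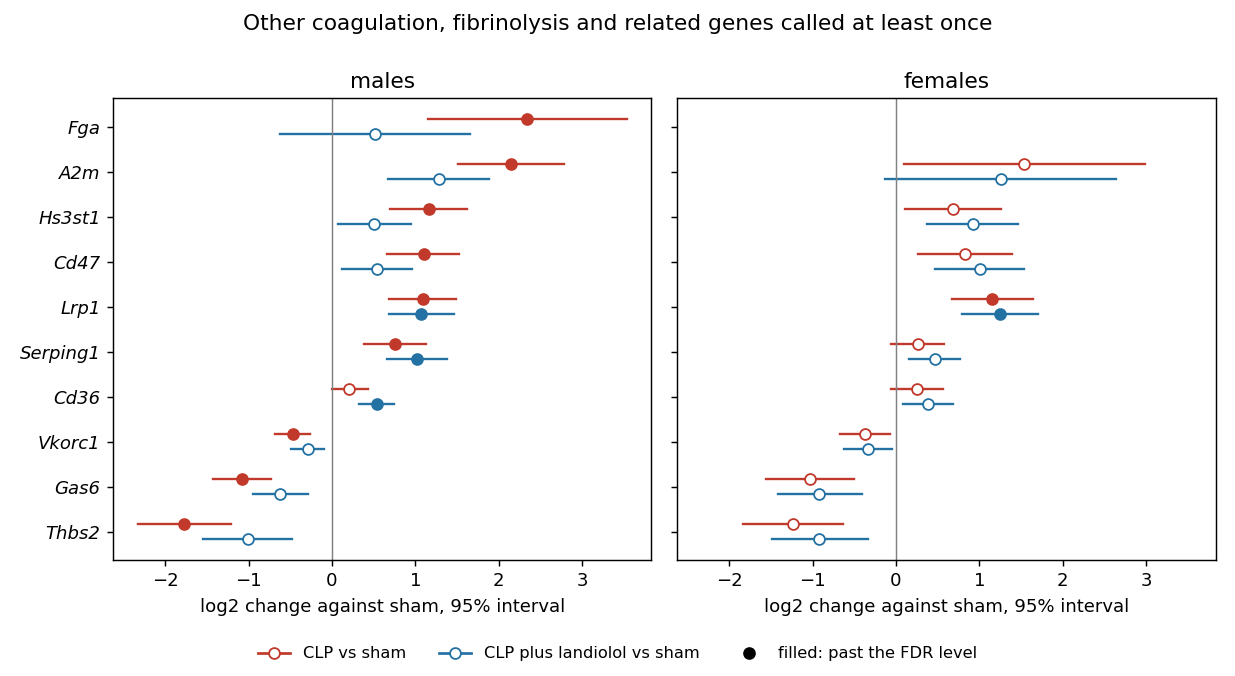
Log2 change against sham (horizontal axis, with 95% interval from limma) of the 10 genes of the wider list called at least once, after CLP and after CLP plus landiolol; filled points passed 1%. Lrp1 is the only gene filled in both sexes; Fga was not tested in females, and in males its sham arrays were all at background, so its point depends on values with no measured level.

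Promoter sequence was at hand for 5 of the 9 genes (Plaur, Procr, Plau, Thbs1 and Tfpi, the last with 2 start sites), from RefSeq on GRCr8, and the 250 bases before each start site were searched on both strands. The motifs were TGACTCA (bound by AP-1), TGACGTCA (the cyclic AMP response element), TGACG (the start of that element, and so contained in it), GGGCGG (bound by Sp1), TATAAA (the TATA box) and the NF-kappaB motif. Plaur and Procr each held TGACTCA 1 time, a motif present in 4.05% of the 33469 promoters of the table. They are shown because both hold this motif. Their levels had a correlation of 0.59 over the 32 arrays, each sex centred, while Plaur followed Thbs1, whose window does not hold TGACTCA, at r = 0.64. TGACTCA is in capitals.
Plaur, chr1:89181113-89181362 (GRCr8, plus strand): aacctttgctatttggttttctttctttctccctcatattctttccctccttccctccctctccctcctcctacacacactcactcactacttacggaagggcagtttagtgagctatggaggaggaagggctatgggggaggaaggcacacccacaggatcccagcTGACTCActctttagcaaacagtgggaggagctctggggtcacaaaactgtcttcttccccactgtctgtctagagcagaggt
Procr, chr3:164714477-164714726 (GRCr8, plus strand): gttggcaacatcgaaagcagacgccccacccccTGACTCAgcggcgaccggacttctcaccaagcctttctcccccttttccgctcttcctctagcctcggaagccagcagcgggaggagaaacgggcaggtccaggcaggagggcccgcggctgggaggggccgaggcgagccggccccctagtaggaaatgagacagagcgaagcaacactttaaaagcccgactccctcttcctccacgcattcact

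The motif starts 83 bases before the start site in Plaur and 217 bases before it in Procr. GGGCGG was found in Thbs1, in Plau and at 1 of the 2 Tfpi start sites, beside 30.5% of all promoters, and TGACG in Plau, beside 18.2%. No match to the cyclic AMP response element (1.59% of promoters), the TATA box (12.9%) or the NF-kappaB motif (4.24%) was found in these windows. A match describes the letters only.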

How the data were processed

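Left ventricle RNA from 32 Wistar rats was hybridised by the authors to one-colour Agilent rat arrays and read with Agilent Feature Extraction 10.5, per the labels. The scanner headers name the extraction protocol GE1_107_Sep09 for the first female slide and GE1_105_Dec08 for all other slides. Slide and protocol thus cannot be told apart in females. The deposited scanner files hold a processed intensity per spot, background-subtracted by that software, and the deposited value table holds log2 values normalized by the authors, whose columns followed their own arrays' intensities with a rank correlation of at least 0.995 and were used as an alternative. Here log2 processed intensities, without control spots and outlier spots, were averaged per probe (60 bases), quantile-normalised within a sex and kept when well above background on 80% of the arrays of a group. Tests used limma 3.58.1 (lmFit and eBayes, all 3 groups of a sex in a fit) in R 4.3.3. The study used significance analysis of microarrays (SAM), which was an alternative here with 100 permutations. The 2 annotation versions of the scanner files were both searched for gene names. All members are named. Of the wider list the genes called in any comparison are named, and for a called member the 3 genes most correlated with it. The members and all lists were chosen with earlier results of these data known. The motif search was meant for called members. It was run for all members with a promoter, since F3 is not in the table. The fit and SAM were tested on simulated data. No pair of arrays held the same values. Replicate numbers follow the order of the samples. Values of 1 gene of the wider list are not reported here.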

Additional observations from a re-analysis of the deposited data

Results flagged for a closer look

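Of 54 groups of arrays examined (9 genes, 6 groups), 5 held an array that stood apart from the rest of its group by Dixon's gap criterion, which flags about 1 in 20 groups by chance. Plau read 4.56 on male sham replicate 1, with the next array at 6.33. Thbd read 10.36 on female sham replicate 1, with the next at 11.64, and Thbs1 read 6.98 on the same array, with the next at 9.55. Tfpi read 8.43 on female CLP replicate 2, with the next at 9.14, and 9.69 on female CLP plus landiolol replicate 1, with the next at 9.19.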

How the results depend on the processing

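In male CLP against sham the single member called, F3, was lost (0 called) without the filter on dim probes, with the slide as a block and with a term for slide row, and 3 members (F3, Thbd and Procr) were called at an FDR of 5%. Leaving out single arrays gave 0 to 1 called. In CLP plus landiolol against sham, males went from 0 to 1 called, Thbd, with SAM, at an FDR of 5% and when any probe of the gene counted, and females from 0 to 1, F3, with SAM and at an FDR of 5%. The counts of the other 5 comparisons, sex differences included, stayed at 0 under every alternative run. Of 1326 recomputed changes of single members, 1308 kept their side of the threshold, 11 fell below it, 7 passed it and 0 called ones turned sign. All 11 that fell were F3 in male CLP against sham, the only call, which was kept in 13 of 24 alternatives. The other changes were not called to begin with, so the total says little about that call. The count of the wider list in male CLP against sham ranged from 5 to 14 over other settings and from 6 to 10 over left-out arrays, against 9, and in females the same count went from 1 to between 0 and 4. For CLP plus landiolol against sham the list count went from 3 to between 3 and 8 in males. In females it went from 1 to 8 with array weights, 9 with SAM, 10 at an FDR of 5% and 0 with a term for slide row. For CLP plus landiolol against CLP it went from 0 to 5 in males and 1 in females with array weights. The share of all genes called under each of these settings was not worked out, so the counts of members and of the list have no background there. The cause of these shifts was not tested. No paired analysis was run because the arrays came from different rats and the labels name no pairs. With 5 or 6 arrays a group, changes of any size within the interval given for a gene remain possible for it, and the signal of Plau was near background.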
